A study of Mus musculus with 5 samples.

Results

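Toll-like receptors are membrane proteins of innate immunity that recognise molecular patterns of microbes and of damaged cells. The genes described are Tlr1, Tlr2, Tlr4 and Tlr6, whose receptors sit at the cell surface, Tlr3, Tlr7, Tlr8, Tlr9 and Tlr13, whose receptors sit in endosomes and read nucleic acids, and Myd88, the adapter that carries the signal of every member receptor except Tlr3. They were taken by gene symbol and are 10 of the 24768 loci in the deposited table. Surface and endosomal receptors were set side by side. Apart from Tlr4 and Tlr3, the member receptors signal mainly through MyD88, which assembles IRAK kinases into a complex that leads to NF-kappaB and, for the nucleic acid receptors, to interferon regulatory factors. Tlr3 signals through the adapter TRIF, and Tlr4 uses both adapters. In most tissues macrophages, dendritic cells and other leukocytes carry the highest levels of these genes, while Tlr3 is also made by many epithelial and stromal cells.

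The adult wild-type group comprised 2 RNA libraries of uvea, and the adult AAV5-Cre;Lats1/2 fl/fl group comprised 3 libraries of eye tumor, in which an adeno-associated virus delivered Cre recombinase to floxed Lats1 and Lats2, the kinases of the Hippo pathway. The labels give neither the promoter that drove Cre nor whether the wild-type eyes received a virus, so the deletion and the virus cannot be told apart from tumor growth itself. The labels do not state whether each library had its own animal, and p-values therefore measure only the spread between these samples, which may in part be technical. Each wild-type library held sex-linked transcripts of both sexes, as given below. The spread of wild type may therefore be that between pools of animals.

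The libraries held 12687703 to 14368272 estimated fragments. The tumors are called uveal melanoma in the title of the series. Levels are given in FPKM (fragments per unit of transcript length, scaled to library depth). Over 6 genes listed for uveal melanocytes, the summed level was 10.01 to 72.0 FPKM in tumors against 5623 to 5876 FPKM in wild type. Of these genes 5 fell and 1 was not called. Whether other pigmented cells of the wild-type uvea also made them was not tested. The wild-type uvea also held RNA of the retinal pigment epithelium, with 10030 to 10190 FPKM over 5 genes against 5.83 to 58.7 FPKM in tumors, and of photoreceptors, with 855 to 922 FPKM over 5 genes against 1.29 to 3.97 FPKM. Of 5 fibroblast genes 2 rose. Groups therefore differed widely in the tissue they held, and in bulk RNA fewer cells of a type and less RNA per cell cannot be told apart.

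The upstream sequences of the members were searched for 3 short motifs known from genes of leukocytes and of inflammation. RefSeq promoters of GRCm38.p6 were matched for 8 of the 10 members, and the 250 bases before the start site were read on both strands. GAGGAA, a core that the myeloid ETS factor PU.1 can bind, occurred in 4 members and in 23.3% of all promoters. GAAANNGAA, the core of an interferon-stimulated response element, occurred in 3 members and in 7.13% of all promoters. GGGANTTTC, a form of the NF-kappaB site, occurred in 1 member, Tlr3, and in 0.941% of all promoters. The upstream bases of Tlr2 held none of these letters in this window, and Tlr4 and Tlr7 were not matched. A match describes the letters alone, and nothing was measured about binding. The windows below are shown because they come from members that rose. Each gives the motif in capitals with up to 25 bases on either side, written 5′ to 3′ on the strand of the gene. A match on the other strand appears as its reverse complement.
Tlr1, chr5:64933559-64933606, minus strand: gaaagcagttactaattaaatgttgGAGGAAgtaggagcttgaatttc
Tlr9, chr9:106222461-106222516, plus strand: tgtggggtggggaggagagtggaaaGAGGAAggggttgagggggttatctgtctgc
Tlr13, chrX:106143167-106143222, plus strand: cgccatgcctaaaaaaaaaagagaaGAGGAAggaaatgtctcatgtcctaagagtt
Tlr8, chrX:167264376-167264431, minus strand: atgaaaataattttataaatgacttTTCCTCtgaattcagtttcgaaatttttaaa
Tlr6, chr5:64959248-64959306, minus strand: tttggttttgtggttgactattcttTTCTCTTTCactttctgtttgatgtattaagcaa
Myd88, chr9:119340025-119340083, minus strand: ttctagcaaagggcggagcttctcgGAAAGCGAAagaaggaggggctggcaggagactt
In the Tlr6 window a second, overlapping match to GAAANNGAA follows the one in capitals. The RefSeq start site used for Tlr6 lies inside the locus as counted (chr5:64952064-64960034), and so does this window. Tlr8 also held a match to GAAANNGAA, 67 to 59 bases before its start site.

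Of the 10 members, 9 rose in tumors and none fell, against 18.7% of the 15241 tested loci that rose and 15.4% that fell. "Rose" and "fell" stand here only for an adjusted p under 0.05 in edgeR's quasi-likelihood test with Benjamini-Hochberg adjustment over all tested loci, and DESeq2 also called 9 members higher (22.4% of its tested loci). In all 10 members every tumor library lay above both wild-type libraries, a pattern shown by 33.7% of tested loci. The median log2 fold change of the members was 3.17, and that of all tested loci was 0.048. Leaving out either wild-type library ended all 9 calls in edgeR, with 0 members called although 9 had an unadjusted p under 0.05, while DESeq2 called 9 without either library. Myd88 had the highest level per transcript length in every library, and Tlr6 was the lowest member on average in both groups.

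**Figure D1:**
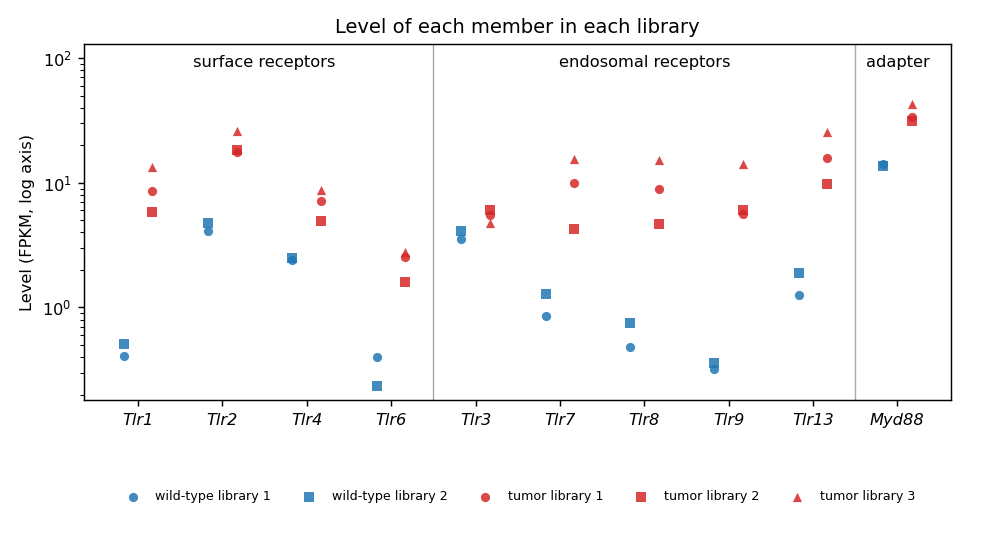
Level of each member (FPKM, log axis) in the 2 wild-type and 3 tumor libraries, 1 point a library, in order of surface receptors, endosomal receptors and adapter. In every member the tumor points lie above the wild-type points, with the smallest distance for Tlr3.

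Among the surface receptors, Tlr2 was the highest in both groups. Its product recognises bacterial lipoproteins together with the product of Tlr1 or Tlr6. Tlr2 (chr3:83836272-83841608, minus strand, mm10) had 4.10 and 4.75 FPKM in wild type against 17.7, 18.5 and 25.8 FPKM in tumors. The tumor values lay close together and well above wild type, from 4.42 ± 0.462 (SD, n = 2) to 20.7 ± 4.47 FPKM (SD, n = 3), and the log2 fold change was 2.27 (SE 0.24, adjusted p = 0.0067). Its partner Tlr1 (chr5:64924672-64933571, minus strand) was near the bottom of the receptors in wild type and in their middle in tumors. Tlr1 had 0.411 and 0.509 FPKM in wild type against 8.53, 5.79 and 13.3 FPKM in tumors. The means were 0.460 ± 0.0693 (SD, n = 2) and 9.20 ± 3.79 FPKM (SD, n = 3), and the log2 fold change of 4.45 (SE 0.49, adjusted p = 0.0071) was the largest of the surface receptors. The wild-type level of Tlr1 rested on 16 and 15 fragments, so counting error alone is large there.

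Tlr6, the other partner of Tlr2, lies beside Tlr1 (chr5:64952064-64960034, minus strand). Its FPKM was 0.404 and 0.235 in wild type and 2.53, 1.59 and 2.76 in tumors, and the groups did not overlap. The rise was 3.08 on the log2 scale (SE 0.48, adjusted p = 0.014), from 0.319 ± 0.119 (SD, n = 2) to 2.30 ± 0.619 FPKM (SD, n = 3), with 16 and 8 fragments in wild type. The level of Tlr1 per length was 1.02 and 2.16 times that of Tlr6 in wild type and 3.37, 3.64 and 4.81 times in tumors. Tlr1 and Tlr6 share stretches of identical sequence, and their estimates are uncertain to the degree that fragments could be split between them. The longest run of coding sequence that both share is 229 bases (GRCm38, Tlr1 at chr5:64925537-64925765 and Tlr6 at chr5:64953828-64954056, minus strand, GENCODE M21 transcripts), and it is shown as the longest of the stretches where reads fit either gene.
Tlr1 and Tlr6: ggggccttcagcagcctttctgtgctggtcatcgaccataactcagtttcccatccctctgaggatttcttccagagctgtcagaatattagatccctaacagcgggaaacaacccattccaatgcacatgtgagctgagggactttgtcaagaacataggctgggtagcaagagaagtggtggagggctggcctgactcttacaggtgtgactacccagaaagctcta
Of all stretches of 50 bases in the transcripts, 454 were shared, which is 13.6% of those of Tlr1 and 12.3% of those of Tlr6. Of the other members only Tlr4 shared any stretch of this length with another gene, 1 of its 5551.

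Tlr4 encodes the receptor for bacterial lipopolysaccharide and lies at chr4:66827401-66846873, plus strand. It had 2.40 and 2.48 FPKM in wild type against 7.08, 4.97 and 8.76 FPKM in tumors. The wild-type libraries nearly coincided, and the rise to 6.94 ± 1.90 FPKM (SD, n = 3) from 2.44 ± 0.0540 FPKM (SD, n = 2) was the smallest of the surface receptors, at 1.61 on the log2 scale (SE 0.28, adjusted p = 0.017).

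Of the endosomal receptors, 4 of 5 rose and Tlr3 did not pass the test. Tlr9, the receptor for unmethylated CpG DNA (chr9:106222598-106229024, plus strand), had the largest rise of all members. Its level was 0.319 and 0.356 FPKM in wild type, from 21 and 24 fragments, and 5.61, 6.09 and 14.2 FPKM in tumors. Tumor library 3 was 2.53 times tumor library 1, yet the lowest tumor value was far above wild type. The means were 0.337 ± 0.0262 (SD, n = 2) and 8.63 ± 4.82 FPKM (SD, n = 3), and the log2 fold change was 4.78 (SE 0.60, adjusted p = 0.0089). Tlr13, a mouse receptor for bacterial 23S ribosomal RNA (chrX:106143275-106160907, plus strand), was the highest endosomal receptor in tumors. It had 1.27 and 1.89 FPKM in wild type against 15.8, 9.78 and 25.7 FPKM in tumors. The change from 1.58 ± 0.442 (SD, n = 2) to 17.1 ± 8.03 FPKM (SD, n = 3) amounted to 3.5 on the log2 scale (SE 0.51, adjusted p = 0.012).

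Tlr7 and Tlr8, neighbouring receptors for single-stranded RNA and its breakdown products, lie on the X chromosome at chrX:167304604-167330580 and chrX:167239966-167264280, both on the minus strand. Tlr7 had 0.861 and 1.27 FPKM in wild type against 9.92, 4.25 and 15.4 FPKM in tumors. It had the widest spread among tumors of all members, with the highest library 3.62 times the lowest. From 1.07 ± 0.293 (SD, n = 2) to 9.85 ± 5.57 FPKM (SD, n = 3) the difference on the log2 scale was 3.26 (SE 0.66, adjusted p = 0.023), and without tumor library 1 the call was lost (adjusted p = 0.053). Tlr8 had 0.480 and 0.746 FPKM in wild type against 8.84, 4.64 and 15.3 FPKM in tumors, the same order of libraries as Tlr7. Its log2 fold change was 4.04 (SE 0.66, adjusted p = 0.014), from 0.613 ± 0.188 (SD, n = 2) to 9.58 ± 5.35 FPKM (SD, n = 3). Per length, Tlr7 was 1.79 and 1.71 times Tlr8 in wild type and 1.12, 0.916 and 1.01 times Tlr8 in tumors, so the pair stood nearer to each other in tumors.

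Tlr3 encodes the receptor for double-stranded RNA and lies at chr8:45395665-45410539, minus strand. It had 3.51 and 4.11 FPKM in wild type against 5.51, 6.04 and 4.72 FPKM in tumors. Every tumor value was above wild type. With means of 3.81 ± 0.424 (SD, n = 2) and 5.42 ± 0.661 FPKM (SD, n = 3), the log2 fold change of 0.51 (SE 0.20) had an adjusted p of 0.1 in edgeR and an unadjusted p of 0.048. Tlr3 was also the only member highest in tumor library 2 and lowest in tumor library 3. Exons of Tlr3 share 160 bases with the antisense gene Gm45542, and since the strand setting of the count is not given, reads of both cannot be told apart there.

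Myd88 (chr9:119335988-119340040, minus strand) was the most evenly expressed of the members that rose. Its level was 14.3 and 13.6 FPKM in wild type and 33.9, 31.3 and 43.1 FPKM in tumors, with the highest tumor library 1.38 times the lowest. The means were 14.0 ± 0.446 (SD, n = 2) and 36.1 ± 6.21 FPKM (SD, n = 3), and its log2 fold change of 1.42 (SE 0.19, adjusted p = 0.0099) was the smallest among the called members. In the GENCODE M21 annotation, exons of Myd88 share 223 bases with those of Acaa1a on the opposite strand, a gene of peroxisomal fatty acid oxidation. Acaa1a had 59.5 and 58.0 FPKM in wild type against 52.2, 35.9 and 41.9 FPKM in tumors (log2 fold change -0.39, adjusted p = 0.18). The part of its reads in the level of Myd88 was not tested.

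**Figure D2:**
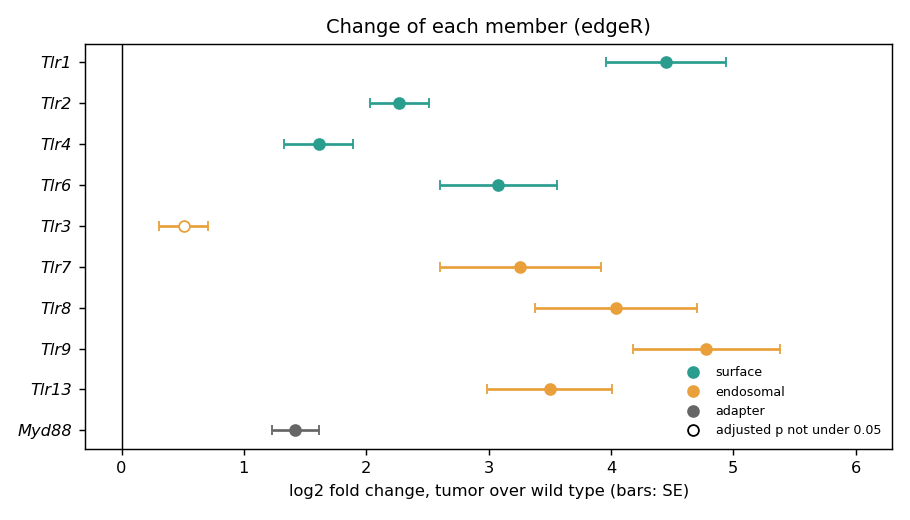
Log2 fold change of tumor over wild type for each member from edgeR, with bars of 1 SE, coloured by class. Tlr9 and Tlr1 lie farthest to the right (4.78 and 4.45), and Tlr3 (0.51) is the 1 member whose adjusted p is not under 0.05.

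The surface and endosomal classes were then set against each other. The median log2 fold change was 2.67 for the 4 surface receptors and 3.5 for the 5 endosomal receptors, a difference of -0.82 (surface minus endosomal). Values within each class were spread more widely than that, from 1.61 to 4.45 for surface and from 0.51 to 4.78 for endosomal receptors, so the classes overlapped over most of their range. The difference was -0.38 without wild-type library 1 and -1.22 without wild-type library 2, so its size depended on a single wild-type library. Without Tlr3, the endosomal median was 3.77.

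Summed FPKM gave the balance between the classes in each library. Surface receptors summed to 7.31 and 7.97 FPKM in wild type and to 35.8, 30.9 and 50.6 FPKM in tumors. Endosomal receptors summed to 6.43 and 8.38 FPKM in wild type and to 45.7, 30.8 and 75.2 FPKM in tumors. The endosomal share of the summed level was 46.8% and 51.2% in wild type and 56.0%, 49.96% and 59.8% in tumors, and these ranges overlapped. Tlr3 made up more than any other receptor of the endosomal sum in wild type. Without it, the endosomal share was 28.6% and 34.9% in wild type and 52.8%, 44.5% and 58.2% in tumors, with no overlap. The choice to leave out Tlr3 was made with its value known, and no test was run on these shares. On the log2 scale of CPM (counts scaled to library size), the mean of the surface receptors minus that of the endosomal receptors was -0.0 and -0.57 in wild type and -0.58, -0.45 and -0.83 in tumors, so the unweighted means overlapped too.

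**Figure D3:**
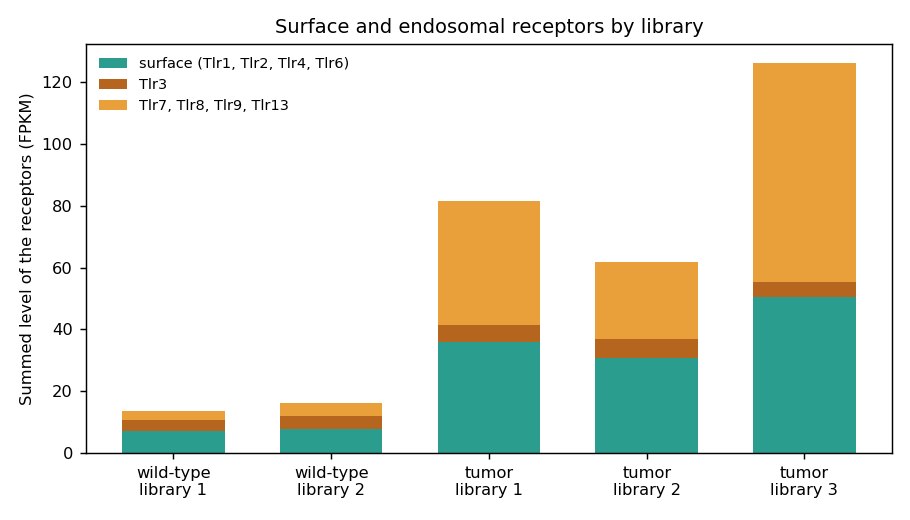
Summed FPKM of the surface and of the endosomal receptors in each library, with Tlr3 drawn as its own section of the endosomal bars. The other endosomal receptors form 1 combined section. Tlr3 is the larger of these sections in wild-type library 1 (3.51 against 2.925 FPKM). It is the smaller in wild-type library 2 (4.11 against 4.27 FPKM) and in every tumor library.

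The order of the receptors by level per transcript length changed between groups. In wild type it ran Tlr2, Tlr3, Tlr4, Tlr13, Tlr7, Tlr8, Tlr1, Tlr9 and Tlr6. Neighbours in this order overlapped between libraries for 4 of 8 pairs, namely Tlr2 with Tlr3, Tlr13 with Tlr7, Tlr8 with Tlr1 and Tlr9 with Tlr6. In tumors it ran Tlr2, Tlr13, Tlr7, Tlr8, Tlr1, Tlr9, Tlr4, Tlr3 and Tlr6, and 7 of 8 neighbouring pairs overlapped. Only Tlr3 and Tlr6 did not. Tlr3 moved from place 2 to place 8 of 9 and Tlr4 from place 3 to place 7, while Tlr2 stayed highest and Tlr6 lowest. Tlr2 was 9.96 and 9.33 times the level of its partner Tlr1 in wild type and 2.08, 3.19 and 1.94 times in tumors.

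Tumor libraries differed among themselves in a repeated way. Tumor library 3 was the highest for 9 of 10 members, and tumor library 2 was the lowest for 7. The ratio of the highest to the lowest tumor library was 2.29 or more for Tlr1, Tlr7, Tlr8, Tlr9 and Tlr13, and at most 1.76 for Tlr2, Tlr3, Tlr4, Tlr6 and Myd88. The mean over 12 macrophage and monocyte marker loci had library 3 highest and library 2 lowest too. The chemokine receptor gene Ccr2 (79.6, 26.2 and 58.1 FPKM in tumors), though, was highest in library 1. The locus shared by C1qb and C1qc entered this mean separately for each of these genes, so it was a mean over 13 entries. This mean log2 CPM was 4.75 and 4.65 in wild type and 7.99, 7.43 and 8.69 in tumors. Of these loci 10 rose, and their summed level was 586 to 636 FPKM in wild type and 3675 to 8997 FPKM in tumors. Csf1r and Cd68 were the 2 that did not pass (log2 fold change 1.03 and 1.55, adjusted p = 0.073 and 0.091). Ptprc, the pan-leukocyte antigen CD45, rose from 1.58 and 1.61 FPKM to 32.2, 19.97 and 47.2 FPKM (log2 fold change 4.41, adjusted p = 0.0068).

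Set against the mean of these macrophage loci in the same library, the members did not move as 1 group. On this log2 CPM scale Tlr1 (-4.31 to -4.20 in wild type, -3.45 to -3.31 in tumors) and Tlr9 (-3.95 to -3.59 and -2.99 to -2.35) were higher in every tumor library. Tlr6, Tlr7, Tlr8 and Tlr13 overlapped between the groups, with differences of -0.42, -0.29, 0.51 and 0.04. Tlr2 (-1.27 to -0.97 and -2.54 to -1.75) and Tlr4 (-0.86 to -0.78 and -2.85 to -2.40) were lower in every tumor library. The same held for Myd88 (-0.12 to -0.10 and -2.44 to -1.63) and for Tlr3 (-0.86 to -0.55 and -4.39 to -2.79). These differences of 2 quantities carry no test, and the part of leukocyte number in the rise of the members was not tested.

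**Figure D4:**
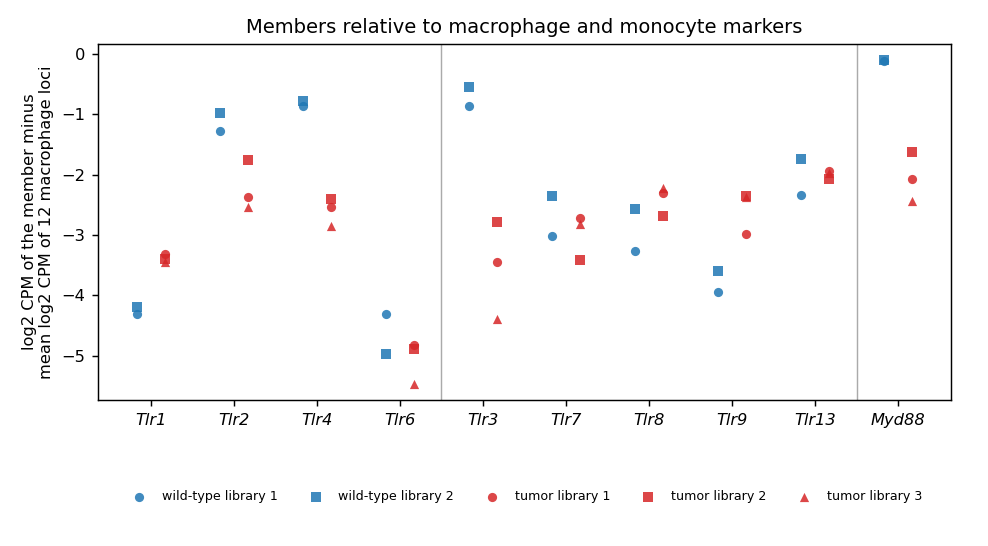
Log2 CPM of each member minus the mean log2 CPM of 12 macrophage and monocyte loci, for each library. The locus shared by C1qb and C1qc entered the mean separately for each of these genes. Tlr1 and Tlr9 are higher in tumors, Tlr2, Tlr3, Tlr4 and Myd88 are lower, and the other 4 members overlap.

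Markers of other leukocytes were counted as well, against 18.7% of all tested loci that rose. Siglech, a marker of plasmacytoid dendritic cells, which make much Tlr7 and Tlr9, rose from 0.497 and 0.313 FPKM to 2.42, 2.92 and 2.29 FPKM (log2 fold change 2.77, adjusted p = 0.011). It was 1 of 3 tested genes of its list to rise, and the summed level of the list was 44.6 to 58.6 FPKM in wild type and 33.8 to 808 FPKM in tumors, since Cox6a2, also a gene of muscle, reached 804 FPKM in tumor library 1. Of the other members of that list, Ccr9 and Klk1 were at or near 0. Of the conventional dendritic cell genes 2 of 7 rose (7.459 to 7.598 FPKM summed in wild type, 32 to 76.27 in tumors), 1 of them (Flt3) not without tumor library 1. Of the B cell genes 3 of 4 tested rose (3.59 to 3.94 and 11.8 to 23.2 FPKM), none of them without tumor library 1 (adjusted p 0.055 to 0.062). Of the T and NK cell genes 5 of 6 tested rose (2.95 to 3.49 and 25.1 to 64.0 FPKM). Of the neutrophil genes 2 of 4 tested rose (11.05 to 12.04 and 43.9 to 63.2 FPKM), with Mpo and Elane at or near 0. The call of S100a8, 1 of these, was lost without tumor library 1. None of 4 mast cell genes rose and 1 fell (18.1 to 21.2 and 9.42 to 14.6 FPKM), and none of 4 endothelial genes was called. The part of these cells in the levels of the receptors was not tested.

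Tlr7, Tlr8 and Tlr13 are X-linked, and the libraries differed in sex-linked transcripts. Xist, transcribed from the inactive X chromosome, had 3.30 and 3.05 FPKM in wild type against 0.00792, 0.00803 and 22.6 FPKM in tumors. Ddx3y, a gene of the Y chromosome, had 8.60 and 10.7 FPKM in wild type against 21.3, 14.6 and 0 FPKM in tumors. Both transcripts were found in each wild-type library, while each tumor library held mainly 1 of them. Each wild-type library may thus be a pool of animals of both sexes, which was not tested. Tumor library 3, with the highest Xist, was the highest for all 3 X-linked receptors. It was also the highest for every autosomal member except Tlr3, namely Tlr1, Tlr2, Tlr4, Tlr6, Tlr9 and Myd88. Tumor libraries 1 and 2, with little Xist, were above both wild-type libraries in all 3 X-linked receptors. The part of sex in these levels was not tested.

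Of the mouse Toll-like receptors outside the members, Tlr11 was low, while Tlr12 in tumors was in the range of the members. The mean of Tlr5 in tumors was near that of Tlr6, the lowest member (2.345 against 2.296 FPKM). Tlr5, the surface receptor for flagellin, rose from 0.596 and 0.535 FPKM to 2.75, 1.73 and 2.56 FPKM (log2 fold change 2.10, adjusted p = 0.017). Tlr12, an endosomal receptor for the protozoan protein profilin, had 0.275 and 0.135 FPKM in wild type against 3.62, 3.17 and 16.5 FPKM in tumors, and rose by 5.25 on the log2 scale (adjusted p = 0.026). Its tumor library 3 was far above the others, as for Tlr9. Tlr11, the other profilin receptor, had 0 and 1 fragments in wild type and 17, 13 and 60 in tumors. It was called higher (adjusted p = 0.039, but 0.057 without tumor library 1), and its fold is left out since wild type was at the limit of counting.

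The further genes of the pathway were described by lists of their roles. Beyond the members, 94 loci of the pathway were tested, of which 47 rose and 6 fell, with a median log2 fold change of 1.66. Over all 15241 tested loci, 18.7% rose and 15.4% fell, with a median of 0.048. The counts of each list below stand against these same shares. Among co-receptors and ligand carriers 4 of 8 rose and 1 fell. Cd14, which hands lipopolysaccharide to Tlr4, rose from 7.09 and 5.41 FPKM to 83.9, 68.5 and 139 FPKM (log2 fold change 4.0, adjusted p = 0.0068), a larger rise than that of Tlr4 itself. Ly96, the MD-2 subunit of the Tlr4 complex, missed the threshold in edgeR (log2 fold change 1.45, adjusted p = 0.05), but was called by DESeq2 (0.013), by limma-trend (0.029) and without tumor library 2 (0.035). Cd180 and its partner Ly86, which form a receptor related to Tlr4 and MD-2, rose by 3.45 and 4.34 on the log2 scale (adjusted p = 0.019 and 0.0075). Clec7a, a receptor for fungal glucans that works with Tlr2, rose by 4.33 (adjusted p = 0.031, but 0.054 without tumor library 1). Mertk, a receptor for dying cells that dampens Toll-like receptor signals and is also needed in the retinal pigment epithelium, fell by 1.92 (adjusted p = 0.047), a call lost without tumor library 1 (0.1) or 2 (0.061).

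Receptor folding and endosomal processing genes were mixed, with 6 of 15 tested loci that rose, 1 that fell and a median log2 fold change of 0.26. Unc93b1, the chaperone that carries them to endosomes, rose from 20.4 and 19.97 FPKM to 142, 111 and 254 FPKM (log2 fold change 3.12, adjusted p = 0.011). It showed the order of tumor libraries seen in most members, with library 3 highest and library 2 lowest. Pld4, an endolysosomal nuclease, rose by 4.27 on the log2 scale (adjusted p = 0.008). The proteases Ctss and Lgmn, which cleave endosomal receptors, rose by 3.93 and 1.93 (adjusted p = 0.0081 and 0.022). The ribonuclease gene Rnaset2b was listed at 2 loci, of which 1 fell by 1.65 (adjusted p = 0.03, but 0.072 without tumor library 1) and the other did not pass (-0.15, adjusted p = 0.76).

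Of the 5 other adapters, 3 rose and 1 fell. Tirap, which brings MyD88 to Tlr2 and Tlr4, rose by 0.61 on the log2 scale (adjusted p = 0.04), a call lost without any 1 tumor library (0.054 to 0.062). Pik3ap1, an adapter to phosphoinositide 3-kinase, rose by 3.03 (adjusted p = 0.0085). Ticam2, which links Tlr4 to TRIF, rose by 3.79 (adjusted p = 0.022), while Ticam1, which encodes TRIF, the adapter of Tlr3, did not pass (0.03, adjusted p = 0.93). Sarm1, an NAD-cleaving adapter protein of neurons, fell by 2.45 (adjusted p = 0.047), a call lost without tumor library 1 (0.11). Tlr3 and its adapter gene Ticam1 thus both had changes that did not pass the test.

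Among kinases, ubiquitin ligases and transcription factors 10 of 25 rose and 2 fell, with a median log2 fold change of 0.48. Irak4, the kinase next to MyD88 in the signalling complex, rose by 1.72 on the log2 scale (adjusted p = 0.0088), and Irak2 fell by 1.11 (adjusted p = 0.0086). Traf6, the ubiquitin ligase downstream of them, did not pass (-0.56, adjusted p = 0.079), and Tab1, a subunit of the TAK1 kinase complex, fell by 0.64 (adjusted p = 0.039, but 0.069 without tumor library 1 and 0.063 without tumor library 3). The factors that rose included Irf7 (3.70, adjusted p = 0.0043), Irf8 (3.62, adjusted p = 0.007) and Irf5 (3.45, adjusted p = 0.013), which are abundant in myeloid cells. Rel and Nfkb2, subunits of NF-kappaB, rose by 1.88 and 1.84 (adjusted p = 0.01 and 0.016).

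Inhibitors of the pathway rose at 7 of 14 loci and fell at 1, with a median log2 fold change of 1.33. Irak3, a kinase-like protein that blocks IRAK signalling in macrophages, rose by 1.74 on the log2 scale (adjusted p = 0.01). Atf3, a stress-induced repressor of cytokine genes, rose by 2.30 (adjusted p = 0.014), and Il1rl1, the receptor of interleukin 33, by 3.23 (adjusted p = 0.014). Tollip fell by 1.16 (adjusted p = 0.012). The NF-kappaB inhibitor Tnfaip3, also called A20, did not pass (0.43, adjusted p = 0.44), nor did Sigirr (0.55, adjusted p = 0.34). Of the receptors of the interleukin 1 family, which use MyD88 as well, 5 of 6 rose, among them Il1rl2 (2.54, adjusted p = 0.015) and Il1r1 (1.15, adjusted p = 0.016). The mean FPKM of Il1r1 was 5.50 in wild type and 8.23 in tumors. For Il1r1, limma-trend on log2(FPKM + 0.1) and log2(FPKM + 1) gave 0.57 and 0.5, and the call was lost (adjusted p = 0.07 and 0.072). Il1rl1 belongs to this family too.

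Of 22 target genes 19 were tested, 10 rose and none fell, with a median log2 fold change of 4.0. Il1b, the cytokine interleukin 1 beta, rose from 0.730 and 0.644 FPKM to 21.4, 18.9 and 17.8 FPKM (log2 fold change 4.85, adjusted p = 0.0029). Its tumor library 3 was the lowest, unlike that of most receptors. The chemokine genes Ccl2 and Cxcl10 rose by 6.82 and 5.82 on the log2 scale (adjusted p = 0.0062 and 0.0056). Their wild-type levels rested on 6 and 7 fragments for Ccl2 and 31 and 16 for Cxcl10, which limits these folds. Il6 rose from 0.0845 and 0 FPKM to 1.12, 0.971 and 1.62 FPKM (adjusted p = 0.025, but 0.083 with a replicate block). Tnf had 0.896 and 0.682 FPKM in wild type against 2.04, 1.97 and 4.30 FPKM in tumors, and its log2 fold change of 1.85 did not pass the test (adjusted p = 0.054). It was called by DESeq2 (0.018), with library size alone (0.042) and without tumor library 2 or 3 (0.044 each), but not in every setting. Il12b did not pass the edgeR test either (-0.21, adjusted p = 0.73). Ifnb1 was too low to be tested, with 0 FPKM in both wild-type libraries and 0.125, 0.127 and 0 FPKM in tumors. DESeq2 called 16 target genes higher where edgeR called 10, against 22.4% and 18.7% of all loci tested by each.

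**Figure D5:**
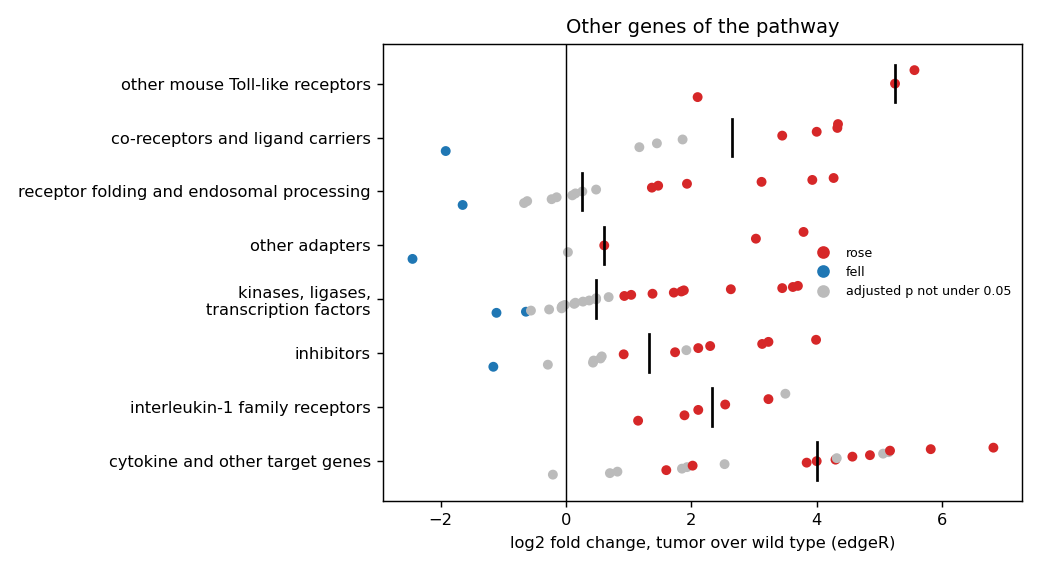
Log2 fold change of tumor over wild type (edgeR) for the tested loci of each pathway list, 1 point a locus, coloured by call, with a black line at the median of each list. Target genes and the other Toll-like receptors have the highest medians (4.0 and 5.25), and the folding and processing list the lowest (0.26).

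The genes whose profile over the 5 libraries was most like that of a member were found by the distance between centred log2 CPM values, over 13738 loci. Tlr1 was nearest to Ly86 (distance 0.09), Tlr13 to Cd33 (0.23), Tlr9 to H2-Ab1 (0.28) and Tlr8 to Ms4a6d (0.39). These 4 neighbours are known as genes of myeloid or antigen-presenting cells. Tlr2 was nearest to Fmo2 (0.11), Tlr4 to Snx5 (0.09), Tlr6 to Cdca3 (0.28), Tlr7 to Nnmt (0.31) and Tlr3 to Ttf1 (0.13). Myd88 was nearest to Thyn1 (0.07), Pot1b (0.08) and Atg16l2 (0.08). With 5 libraries in 2 groups such distances are a description only, and many loci lie close to each profile.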

How the data were processed

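The members, gene lists, motifs and tests were chosen with earlier results of these data known. Per the labels' protocols, Trizol was used for RNA and an Illumina TruSeq kit for libraries. The submitters' processing notes name mm10, TopHat2 2.0.9, Cufflinks 2.2.1 and Cuffdiff. What each tool did, and the annotation, filters and strandedness, is not given in the sources used here.

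Per the file headers, the authors deposited for each library an estimated count of fragments per locus, not scaled, and an FPKM scaled between libraries. Starts are given from 0 in the deposited table, and 1 was added. The condition name gives the group. Replicate numbers in the table are not tied to those of the labels, so libraries are numbered in the table's order.

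Estimated counts were rounded. Unnamed loci (1627, with 1.52% to 4.37% of fragments) were left out of sizes and tests. edgeR 4.0.16 (R 4.3.3) was run with filterByExpr (minimum count 10), TMM and the quasi-likelihood F-test over all 5 libraries, two-sided, with Benjamini-Hochberg adjustment over 15241 loci. Adjusted p-values with no tool named are edgeR's. The SE was taken as the size of the log2 fold change over the root of F. CPM on the log2 scale used a prior count of 2. Library pairs differed by more than sampling noise (chi-square per degree of freedom 5.43 in wild type, 102 to 129 in tumors). Alternatives were DESeq2 1.42.0 (its test and its size factors), library size alone, limma-trend 3.58.1 on log2(FPKM + 1) and log2(FPKM + 0.1), no filter, a minimum count of 30, loci with 1 name, a replicate block, and leaving out each library.

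Genes named are the members, Tlr5, Tlr11, Tlr12, 16 pathway genes fixed by name, up to 3 called genes with the smallest p in each direction per pathway list, and the nearest profiles. Markers named beside the members, Acaa1a, Xist and Ddx3y were chosen after their values were seen.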

Additional observations from a re-analysis of the deposited data

How the results depend on the processing

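Without wild-type library 1 or 2 the count of called loci was 0 in edgeR (4085 and 3996 had an unadjusted p under 0.05) and 2840 and 2794 in DESeq2, and over all libraries left out in turn it ran from 0 to 6144. The count of called members then ran from 0 to 9, with 0 without either wild-type library and 8 without tumor library 1. One wild-type library leaves the spread to the tumors alone. The difference between the surface and endosomal medians ran from -1.22 to -0.38 over these, and was -0.38 and -1.22 in DESeq2 without wild-type library 1 and 2. No setting turned the direction of a member. Tlr3 was not called under any setting.

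With a replicate block 3067 loci and 8 members were called, Tlr7 being lost (adjusted p = 0.064), and the class difference was -0.53. Deviations of libraries with the same number correlated at 0.0131 and 0.0267. With 2 wild-type libraries the deviations of wild type mirror each other, so these values cannot decide whether the numbers pair libraries. Under the block 3 of 14 inhibitors, 3 of 6 receptors of the interleukin 1 family and 1 of 3 other Toll-like receptors were called higher. Both limma-trend settings called 3 of these 6 receptors.

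Wild-type levels of Tlr1, Tlr6 and Tlr9 rest on 24 fragments or fewer, which limits their folds. The same limit holds for other genes named above. Among them, wild-type fragments were 6 and 7 for Ccl2, 11 and 9 for Il1b and 1 and 0 for Il6. They were 8 and 11 for Il1rl1, 12 and 16 for Ticam2, 11 and 5 for Tlr12 and 15 and 9 for Siglech.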
